A study of Mus musculus with 10 samples.

Results

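Cholesterol synthesis and its control by SREBP2 were examined through 26 genes in lung tumors of mice, out of 39017 genes in the count table. The 26 genes were chosen by name for their place in the pathway, as the sterol sensors, the enzymes and the uptake genes that have a row in the table. Of these, 25 were found by symbol, and Msmo1, which the table lists under its older symbol Sc4mol, was found by its gene identifier ENSMUSG00000031604. Other enzymes of the route were not analysed here.

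Tumors were started in male mice of the C57BL/6 strain with the adenoviral vector Ad5-SPC-Cre, in which the surfactant protein C promoter drives Cre recombinase, so that initiation is restricted to cells that use this promoter. KPG1 tumors, labelled homozygous fl/fl, carried in addition floxed Slc2a1, which encodes the glucose transporter Glut1, and KP tumors were the control group. For the KP group, one label reads heterozygous fl/wt and another wild type, so whether controls had already lost 1 copy of Slc2a1 cannot be told from the labels. Both groups share the engineered alleles that start the tumors, which are not reported here, and both were collected 18 weeks and 6 days after initiation. RNA was taken from the cells left after magnetic removal of cells bearing CD45, the common leukocyte antigen, and polyadenylated RNA was sequenced in 5 KP and 5 KPG1 libraries. The labels do not say whether the 5 libraries of a group came from separate animals, so p-values measure the spread between these samples. The comparison asks how the pathway stood in tumors in which Slc2a1 was targeted.

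Cells build cholesterol from acetyl-CoA through mevalonate, the isoprenoid diphosphates, squalene and lanosterol, and the last steps trim and rearrange lanosterol. The membrane-bound transcription factor SREBP2 controls the route. When sterols are plentiful, SREBP2 and its escort Scap are held in the endoplasmic reticulum by the Insig proteins, and when sterols are scarce the complex moves to the Golgi, where SREBP2 is cut free and turns on the genes of synthesis and uptake. In the lung, alveolar type 2 cells use cholesterol as part of the surfactant they secrete.

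Depth per library was 32427029 to 49534284 counts, with 20886 to 22583 genes detected. Slc2a1 (ENSMUSG00000028645, mm10 chromosome 4, 119108711 to 119137983, plus strand) stood at 78.7, 127, 123, 109 and 71.7 CPM, the count relative to its library's total after TMM scaling, in KP 1 to KP 5. In KPG1 1 to KPG1 5 it stood at 47.3, 66.7, 40.7, 51.2 and 44.3 CPM, below every KP library. The difference was -1.01 on the log2 scale (SE 0.20, limma adjusted p 0.0675), and an exact permutation test of the mean log2 CPM gave 0.00794. That is the smallest two-sided p this test can give with 5 libraries a group, and it follows from the lack of overlap. DESeq2 gave an adjusted p of 0.000255, limma with quality weights 0.0171 and limma without KP 5 0.022, so the call on Slc2a1 turns on these choices. Sftpc, the surfactant protein gene of alveolar type 2 cells, was present at 5363 to 19878 CPM in KP and 17470 to 40159 CPM in KPG1, Epcam, an epithelial surface marker, at 333 to 626 and 380 to 504 CPM, and Ptprc, the gene of CD45, at 5.21 to 9.97 and 5.42 to 11 CPM. Summed over 7 epithelial markers, CPM ranged in KP from 4599 to 6218 and in KPG1 from 3539 to 4223, without overlap. The 7 did not all move together, as 2 were fitted higher in KPG1 and 5 lower, with a median log2 fold change of -0.19. Summed over 10 alveolar type 2 markers, CPM ranged from 19005 to 63856 in KP and from 49195 to 89230 in KPG1. The part of these marker sums in the results below was not tested. In bulk tissue, fewer cells of a type and less RNA per cell cannot be told apart.

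The summed level of the pathway overlapped between the groups, and Insig1 had the largest fitted difference of its genes. None of the 26 genes passed an adjusted p of 0.05 in limma, against 0.173% of all 16216 genes tested, which was 28 genes. All 26 passed the filter on low counts, with at least 104 counts in every library. Before adjustment, 2 members (7.69%) had a p under 0.05, Insig1 and Fdft1, both lower in KPG1, beside 11.6% of all genes tested and 6.31% in the lower direction. The edgeR quasi-likelihood test and DESeq2 also placed 0 members past an adjusted p of 0.05, beside 0.247% and 3.46% of all genes, and 12.5% and 14% of all genes had a p under 0.05 in them before adjustment, as did 2 members in each. The fitted log2 fold change was above 0 in 13 members and below 0 in 13, and the median was 0.0028, beside 0.02 over all genes tested. Summed over the 26 genes, CPM ranged from 1120 to 1439 in the KP tumors and from 1057 to 1216 in the KPG1 tumors.

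The spread of the tumors set how much could be seen. The 95% interval of the fold change lay within 1 log2 unit on either side of 0 for 23 of the 26 members, beside 10894 of the 16216 genes tested. The median width of the interval was 0.87 over members, beside 0.97 over all genes. The standard deviation of log2 CPM had a median over members of 0.31 in KP and 0.19 in KPG1, and it was the larger in KP for 20 members (76.9%), beside 73.5% of all genes tested. A change of a whole log2 unit therefore lay outside the interval for most members. Differences whose interval included 0 could not be told from none at this spread.

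**Figure D1:**
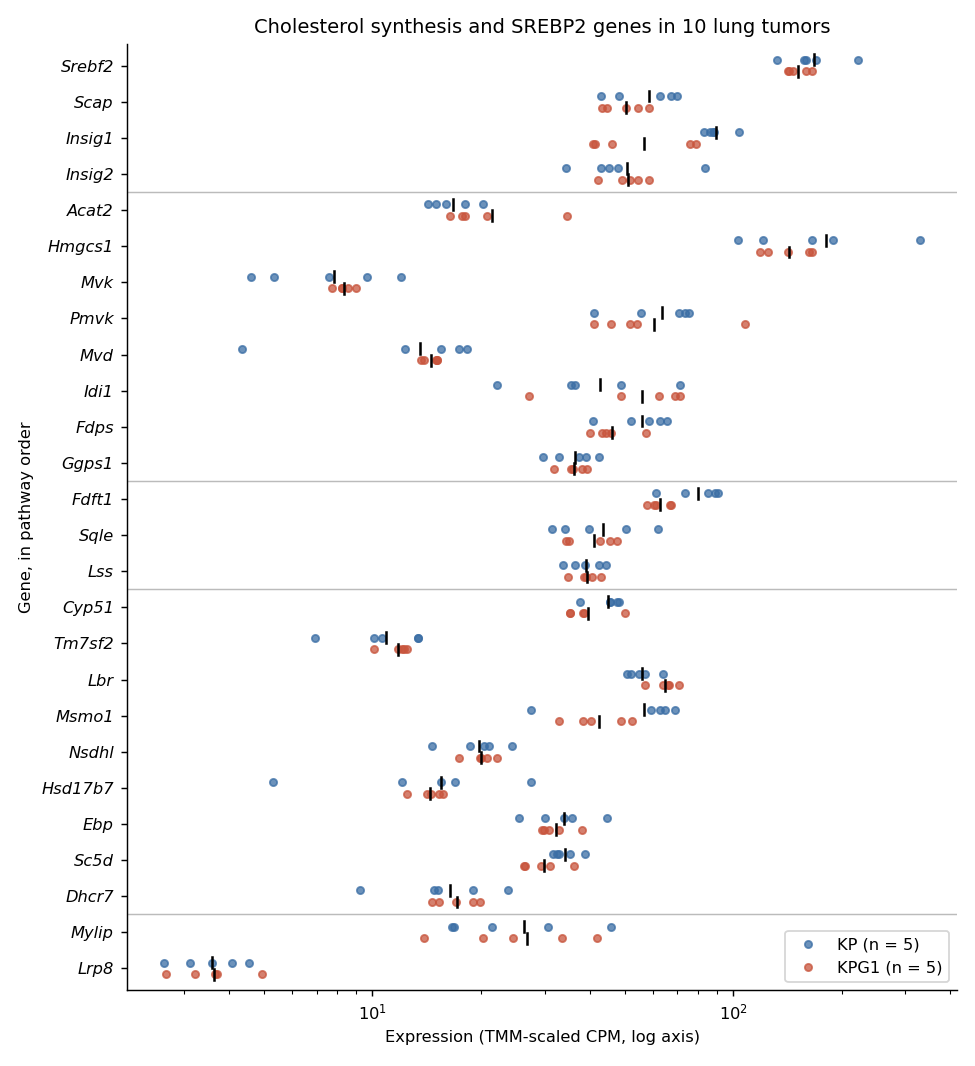
Level of each of the 26 genes in pathway order, as TMM-scaled CPM on a log axis, with 1 point per tumor, KP and KPG1 on separate lines and a black tick at each group mean. The groups overlap for every gene but Insig1, and the KP points of Mvd and Hsd17b7 reach down to 4.36 and 5.3 CPM.

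The genes that sense sterols and hold SREBP2 back were the first of the roles examined. Insig1 (ENSMUSG00000045294, chromosome 5, 28071363 to 28078662, plus strand), whose protein anchors the Scap and SREBP2 complex in the endoplasmic reticulum and which is itself a target of SREBPs, stood at 104, 88.4, 86.3, 83 and 87.9 CPM in KP 1 to KP 5. In KPG1 1 to KPG1 5 it stood at 79.1, 46.2, 41.4, 41 and 76 CPM. All 5 KPG1 tumors lay below all 5 KP tumors, with KPG1 1 and KPG1 5 close to the lowest KP tumor and the other 3 far below it. It was the only member whose groups did not overlap, in a table where 2.81% of all genes had none and 1.76% had KPG1 wholly below KP. Means were 89.9 ± 8.14 CPM in KP and 56.8 ± 19.1 CPM in KPG1 (SD, n = 5 each). The log2 fold change was -0.72 (SE 0.20, 95% interval -1.17 to -0.28) with a limma p of 0.00427 and an adjusted p of 0.225, so Insig1 did not pass the threshold. A stretch of the Insig1 transcript matches the predicted gene Gm37784 at 98.9% identity over 189 bases, which could move some reads between them.

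The sequence just upstream of Insig1 is shown because the gene was the member with the largest difference. It is chr5:28071162-28071362 of GRCm38.p6, plus strand, from RefSeq, and capitals mark the letters CCAAT or GGGCGG on either strand, which are the usual cores of NF-Y and Sp1 sites.
Insig1 upstream: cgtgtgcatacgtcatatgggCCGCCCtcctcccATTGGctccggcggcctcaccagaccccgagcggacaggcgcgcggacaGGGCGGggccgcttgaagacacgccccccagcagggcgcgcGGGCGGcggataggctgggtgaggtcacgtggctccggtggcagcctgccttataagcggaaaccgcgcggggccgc
These matches are a description of letters, and no binding was measured.

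Insig2 (chromosome 1, 121304353 to 121332589, minus strand) encodes the second Insig protein, which acts in the same way as Insig1. It stood at 34.5, 42.9, 45.4, 48.1 and 83.4 CPM in KP 1 to KP 5 and at 58.3, 54.6, 42.2, 51.9 and 49.3 CPM in KPG1 1 to KPG1 5. The KP tumors enclosed all KPG1 tumors, with KP 5 the highest of all 10. The log2 fold change was 0.07 (SE 0.21, 95% interval -0.39 to 0.52). Per kilobase of exon, Insig1 stood at 23.7 and Insig2 at 14.7 CPM over all tumors. Within a tumor, the CPM of Insig1 divided by that of Insig2 was 3.02, 2.06, 1.90, 1.73 and 1.05 in KP 1 to KP 5, with a mean of 1.95 ± 0.71 (SD, n = 5). In KPG1 1 to KPG1 5 the ratio was 1.36, 0.85, 0.98, 0.79 and 1.54, with a mean of 1.10 ± 0.33 (SD, n = 5). The ratio was lower in KPG1 2, KPG1 3 and KPG1 4 than in any KP tumor, and that of KP 5 fell among the KPG1 values, so the groups overlapped.

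Srebf2 (chromosome 15, 82147181 to 82205379, plus strand), is the gene of SREBP2, and its level per kilobase of exon was 22.2 CPM. It stood at 157, 170, 222, 159 and 132 CPM in KP 1 to KP 5 and at 159, 143, 142, 147 and 165 CPM in KPG1 1 to KPG1 5. The KPG1 tumors lay close together and inside the KP range, and the log2 fold change was -0.14 (SE 0.14, 95% interval -0.44 to 0.17). The microRNA gene Mir33 lies within Srebf2 on the same strand. Scap, which carries SREBP2 to the Golgi, stood at 43.1 to 70 CPM in KP and at 43.2 to 58.6 CPM in KPG1, with a log2 fold change of -0.20 (95% interval -0.55 to 0.16).

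**Figure D2:**
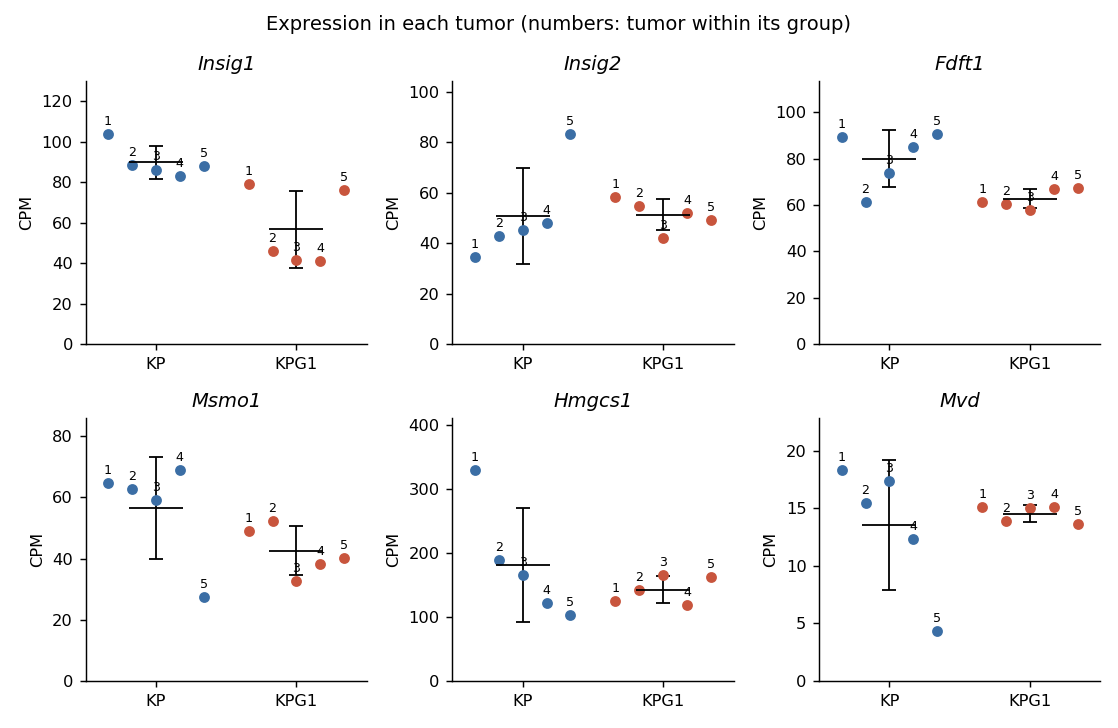
Level of Insig1, Insig2, Fdft1, Msmo1, Hmgcs1 and Mvd as TMM-scaled CPM on axes that start at 0, with 1 numbered point per tumor, a bar at the group mean and error bars of 1 SD (n = 5). Insig1 separates the groups, KP 5 is the lowest point of Msmo1, Hmgcs1 and Mvd and the highest of Insig2 and Fdft1, and KP 1 is far above the other tumors for Hmgcs1.

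The first enzymes of the route carry acetyl-CoA to the isoprenoid diphosphates, and 4 of the 8 were fitted higher and 4 lower in KPG1. Their median log2 fold change was 0.10, with none with an unadjusted p under 0.05. Hmgcs1 (chromosome 13, 119690379 to 119708260, plus strand), the cytosolic HMG-CoA synthase, was among the most abundant members per kilobase of exon, at 35.3 CPM. It stood at 329, 189, 165, 121 and 103 CPM in KP 1 to KP 5 and at 125, 142, 165, 119 and 162 CPM in KPG1 1 to KPG1 5. The KP tumors thus ran from the highest to the lowest value of all 10, around a narrow KPG1 group, and the log2 fold change of -0.24 (SE 0.27, 95% interval -0.83 to 0.35) moved to 0.01 without KP 1. Mvd (chromosome 8, 122433601 to 122443422, minus strand), which makes isopentenyl diphosphate by decarboxylation, stood at 18.3, 15.5, 17.4, 12.3 and 4.36 CPM in KP and between 13.6 and 15.1 CPM in KPG1. KP 5 alone was far below the rest, and the log2 fold change of 0.28 (SE 0.34) became -0.12 without it.

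The other 6 enzymes of this stretch had intervals that included 0. Acat2, the cytosolic thiolase that joins the first acetyl-CoA units, stood at 14.3 to 20.2 CPM in KP and at 16.4 to 20.8 CPM in KPG1 2 to KPG1 5, while KPG1 1 reached 34.6 CPM. Its log2 fold change was 0.33 (95% interval -0.14 to 0.80), and 0.12 without KPG1 1. Its transcript is 97.7% identical to that of Acat3 over the aligned part, so reads of the pair may not be separable. Pmvk, the phosphomevalonate kinase, was also highest in KPG1 1, at 108 CPM, beside 41.1 to 54.3 CPM in the other KPG1 tumors and 41.1 to 75.6 CPM in KP, and its fold change was -0.13 on the log2 scale (95% interval -0.70 to 0.45), -0.38 without KPG1 1 and -0.01 without KPG1 3. Mvk, the mevalonate kinase, stood at 4.62 to 12 CPM in KP and 7.75 to 8.99 CPM in KPG1, a fold change of 0.20 (95% interval -0.35 to 0.75).

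Idi1, the isopentenyl diphosphate isomerase, had the highest fitted fold change of the members, 0.41 on the log2 scale (SE 0.33, 95% interval -0.30 to 1.13). Leaving out single tumors moved it from 0.20 (without KP 4) to 0.66 (without KPG1 3). It stood at 35.5, 71.1, 48.8, 22.2 and 36.5 CPM in KP 1 to KP 5 and at 49, 62.3, 27.2, 69.2 and 71.2 CPM in KPG1 1 to KPG1 5. The groups overlapped almost fully, and the pseudogene Gm13502 holds a stretch identical to Idi1. Fdps, which makes farnesyl diphosphate, stood at 40.8 to 65.4 CPM in KP and 40.2 to 57.3 CPM in KPG1. Its log2 fold change was -0.26 (95% interval -0.60 to 0.07). The Fdps transcript shares near-identical sequence with several pseudogenes, such as Gm3571 at 98.9%. It is also identical over 929 bases to the protein-coding gene Gm43738, which overlaps Fdps on the same strand. Ggps1, which makes the geranylgeranyl diphosphate used for protein prenylation, had group means of 36.3 ± 5.08 and 36.2 ± 2.87 CPM (SD, n = 5 each) and a 95% interval from -0.28 to 0.28 around a log2 fold change of -0.00025.

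Fdft1 (ENSMUSG00000021273, chromosome 14, 63145150 to 63179578, minus strand), the squalene synthase, commits farnesyl diphosphate to sterols. It stood at 89.3, 61.3, 73.6, 85.1 and 90.7 CPM in KP 1 to KP 5 and at 61.3, 60.2, 57.8, 66.9 and 67.2 CPM in KPG1 1 to KPG1 5. KP 2 lay inside the KPG1 range, and the other 4 KP tumors lay above every KPG1 tumor. Means were 80 ± 12.4 and 62.7 ± 4.2 CPM (SD, n = 5 each), and the log2 fold change was -0.34 (SE 0.13, 95% interval -0.62 to -0.06, limma p 0.0225, adjusted p 0.347). Without KP 1 the unadjusted limma p of Fdft1 was 0.0517, and without KPG1 3 it was 0.0556. Fdft1 overlaps Ctsb on the opposite strand, and the pseudogene Gm6781 matches it at 97.4%. Sqle, the squalene epoxidase, stood at 31.4 to 62 CPM in KP and 34.3 to 47.6 CPM in KPG1, with a log2 fold change of -0.06 (95% interval -0.49 to 0.37). Lss, which folds epoxidised squalene into lanosterol, had a mean of 39.2 CPM in both groups and a 95% interval from -0.25 to 0.26.

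From lanosterol to cholesterol, 5 of the 9 enzymes were fitted higher in KPG1 and 4 lower, and the median of their log2 fold changes was 0.03. Msmo1 (chromosome 8, 64718139 to 64733792, minus strand), the C4-methyl sterol oxidase, stood at 64.6, 62.6, 59.2, 68.8 and 27.5 CPM in KP 1 to KP 5. In KPG1 1 to KPG1 5 it stood at 48.9, 52.4, 32.8, 38.3 and 40.3 CPM. All KPG1 tumors were below KP 1 to KP 4, and KP 5 was below all KPG1 tumors. The log2 fold change was -0.36 (SE 0.25, 95% interval -0.90 to 0.19, limma adjusted p 0.61), and without KP 5 it was -0.62 with an unadjusted p of 0.00177 and an adjusted p of 0.0675. Hsd17b7 (chromosome 1, 169949535 to 169969241, minus strand), the 3-ketosterol reductase, showed the widest KP range of these enzymes in proportion, at 27.6, 15.5, 16.9, 12.1 and 5.3 CPM in KP 1 to KP 5, beside 12.5 to 15.7 CPM in KPG1. Its fitted log2 fold change was 0.10 (SE 0.35), although its mean CPM was 15.5 in KP and 14.4 in KPG1, and without KP 5 it was -0.28.

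Lbr and Tm7sf2 encode sterol C14 reductases that act on the same step, and Lbr is also a receptor of the nuclear lamina. Per kilobase of exon, Lbr stood at 12.7 CPM and Tm7sf2 at 2.57 CPM, and Tm7sf2 shares 532 bases of exon with Vps51 on its own strand. Lbr was 55.7 ± 5.19 CPM in KP and 64.8 ± 5.17 CPM in KPG1 (SD, n = 5 each), with KP 5 at 64 CPM and KP 1 at 57 CPM inside the KPG1 range and KPG1 1 at 56.8 CPM and KPG1 2 at 63.9 CPM inside the KP range. The log2 fold change of Lbr was 0.22 (95% interval -0.02 to 0.46), and that of Tm7sf2 was 0.15 (95% interval -0.28 to 0.57). Cyp51, which removes the 14α-methyl group of lanosterol, stood at 37.6 CPM in KP 2 and 45.7 to 48.3 CPM in the other KP tumors. In KPG1 it stood at 50.1 CPM in KPG1 5 and 35.2 to 38.6 CPM in the others. KP 2 thus lay among the other KPG1 tumors and KPG1 5 above all KP tumors, and the log2 fold change was -0.20 (95% interval -0.48 to 0.09).

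The remaining 4 enzymes of these steps also had intervals that included 0. Nsdhl, the C4 decarboxylase on the X chromosome, stood at 14.6 to 24.3 CPM in KP and 17.4 to 22.1 CPM in KPG1 (log2 fold change 0.03, 95% interval -0.30 to 0.37). Ebp, the sterol isomerase, stood at 25.5 to 44.7 and 29.5 to 38.1 CPM (-0.06, 95% interval -0.41 to 0.28). Sc5d, the C5 desaturase, stood at 31.6 to 38.8 and 26.3 to 36.1 CPM with a log2 fold change of -0.21 (95% interval -0.48 to 0.07), so 4 of its 5 KPG1 tumors were below all KP tumors. Dhcr7, the 7-dehydrocholesterol reductase of the last step, stood at 9.25 to 23.8 CPM in KP and 14.6 to 19.9 CPM in KPG1 (0.13, 95% interval -0.38 to 0.63).

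Mylip, the ligase that marks lipoprotein receptors for degradation and responds to LXR rather than to SREBP2, ranged from 16.6 to 46 CPM in KP and from 13.9 to 42 CPM in KPG1, a log2 fold change of 0.03 (95% interval -0.73 to 0.78). Its tumors scattered about as widely in one group as in the other, with an SD of 12.4 CPM in KP and 11.1 CPM in KPG1. Lrp8, a receptor of apolipoprotein E, was the least abundant member at 0.344 CPM per kilobase of exon, and stood at 2.65 to 4.55 CPM in KP and 2.67 to 4.94 CPM in KPG1 (log2 fold change 0.02, 95% interval -0.49 to 0.52).

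**Figure D3:**
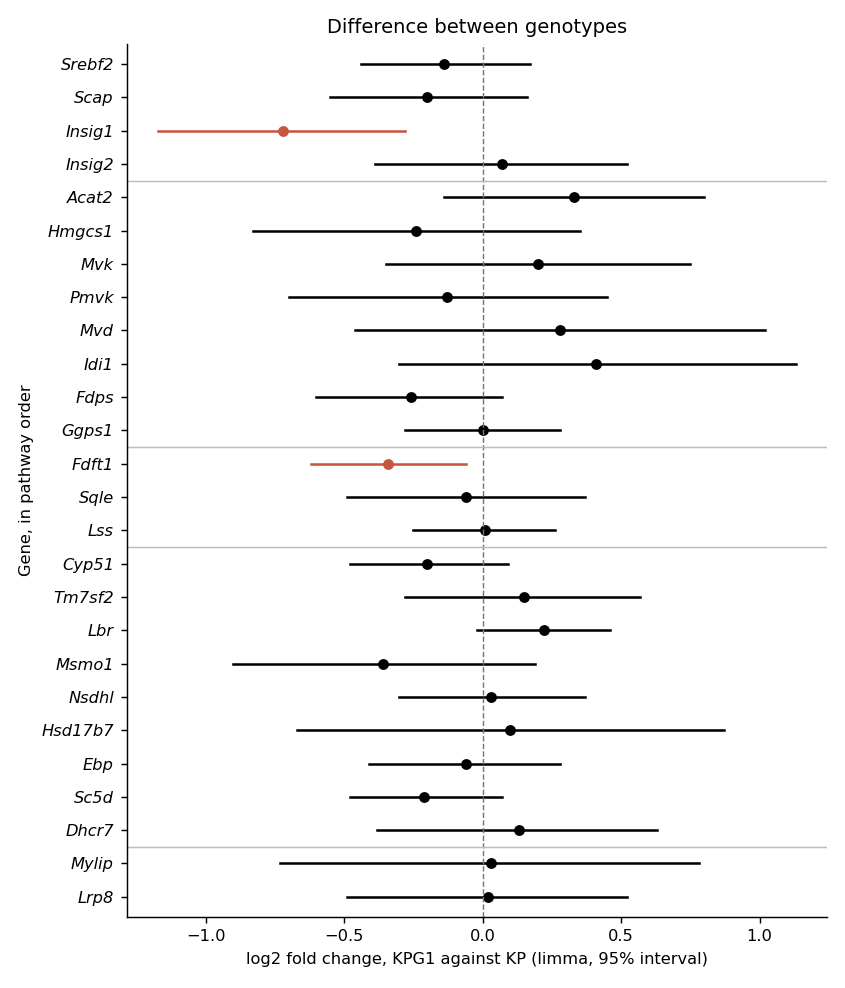
Fitted log2 fold change of KPG1 against KP for each of the 26 genes in pathway order, with the 95% interval from limma and a dashed line at 0. The intervals of Insig1 (-1.17 to -0.28) and Fdft1 (-0.62 to -0.06) lie below 0, and those of the other genes include it.

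The promoters of 4 enzymes held the letters TCACNNCAC, a loose form of the sterol regulatory element that SREBPs bind, within 250 bases before to 50 bases after a RefSeq start on GRCm38.p6. Those of Hmgcs1 (chr13:119690204-119690232, plus) and Hsd17b7 (chr1:169969304-169969332, minus) are shown, as they lie upstream of the gene in both RefSeq and GENCODE, each on the strand of its gene and with the match in capitals.
Hmgcs1: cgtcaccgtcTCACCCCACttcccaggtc
Hsd17b7: tcggcctatcTCACCTCACccggtctggg
The matches of Dhcr7 (chr7:143823259-143823287, plus) and Msmo1 (chr8:64733652-64733680, minus) lie before a RefSeq start but inside the span of the gene in GENCODE. That of Dhcr7 also lies after another RefSeq start of the gene, and that of Msmo1 shares its first base with a CCAAT. The matches began 137 bases before the next RefSeq start for Hmgcs1, 130 for Dhcr7, 117 for Hsd17b7 and 92 for Msmo1. Of the 31 promoters listed for 23 members, 4 held these letters on either strand (12.9%), beside 3.77% of the 32851 promoters of mouse genes. The stricter TCACNCCAC, every match of which also matches the loose form, was found in 1, that of Hmgcs1 (3.23%, beside 1.24%). CCAAT was found in 20 (64.5%, beside 37.4%) and GGGCGG in 23 (74.2%, beside 35.7%). In KP 5 these 4 enzymes were each at their lowest level of all 10 tumors. So were 6 members without the match or without a listed promoter. Insig1, also without the match, stood at 87.9 CPM in KP 5, inside the range of the other KP tumors. Between the groups, the log2 fold changes of the 4 enzymes ranged from -0.36 for Msmo1 to 0.13 for Dhcr7. A part of these letters in the levels was not tested. Fdps, Fdft1 and Sqle were not in the promoter table.

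KP 1 and KP 5 lay at the ends of the range for many members. KP 5 was the lowest of all 10 tumors for 10 members (38.5%), beside 20.2% of all genes tested. These were Srebf2, Scap, Hmgcs1, Mvd, Sqle, Tm7sf2, Msmo1, Nsdhl, Hsd17b7 and Dhcr7. KP 5 was the highest for Insig2, Fdft1 and Mylip (11.5%, beside 22.3% of all genes). KP 1 was the highest of all 10 for 8 members (30.8%, beside 15.3% of all genes). These 8 were Insig1, Hmgcs1, Mvd, Ggps1, Nsdhl, Hsd17b7, Sc5d and Dhcr7. KP 1 was the lowest for Insig2, Lss, Ebp and Lrp8 (15.4%, beside 16.7% of all genes). The median deviation of the members from their own mean over 10 tumors, in log2 CPM, was 0.17 in KP 1, 0.20 in KP 3 and -0.22 in KP 5, and lay between -0.15 and 0.07 in the KPG1 tumors.

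**Figure D4:**
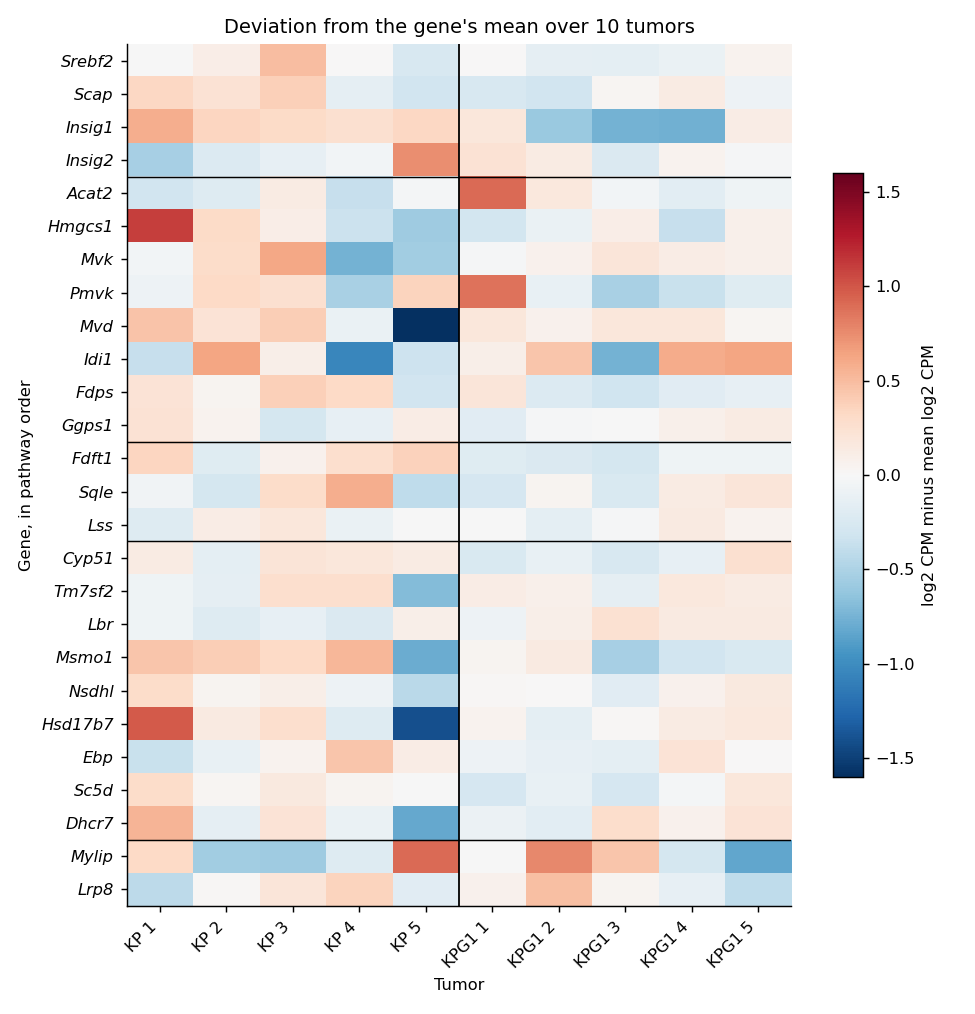
Deviation of each gene from its own mean over 10 tumors, in log2 CPM, with genes in pathway order as rows and tumors as columns, red above and blue below the mean. The KP 5 column, with a median of -0.22, is blue for the 10 genes that were lowest there and red for Insig2, Fdft1 and Mylip, and the Insig1 row is red in KP and blue in KPG1 2, KPG1 3 and KPG1 4.

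KP 5 also stood apart in markers of other features of the tissue. Summed over 20 proliferation genes, CPM was 110 in KP 5, beside 493 to 713 in the other KP tumors and 513 to 883 in KPG1. Summed CPM of 8 endothelial markers was 308 and that of 7 fibroblast markers 116, each the lowest of all 10 tumors, and that of 14 leukocyte markers was 683, the highest of all 10. Within KP, its 7 epithelial markers had the lowest sum, 4599, and its 7 alveolar type 1 markers the highest, 3399. Its sum of alveolar type 2 markers, 63856, lay close to those of KP 2 (62232) and KP 3 (57531). Their part in the low sterol enzymes of KP 5 was not tested. Without KP 5, 6 members (23.1%) had an unadjusted p under 0.05, beside 18.6% of all genes in that fit, and none passed an adjusted p of 0.05, beside 1.78% of all genes. The 6 were Insig1 (log2 fold change -0.74), Msmo1 (-0.62), Fdps (-0.39), Scap (-0.31) and Fdft1 (-0.31), all lower in KPG1, and Lbr (0.26), which was higher.

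Other genes of the pathway were more often fitted higher than lower in KPG1, without any of them passing the threshold. Of 59 such genes, 58 were tested, 44 (75.9%) had a fitted log2 fold change above 0, beside 52.7% of all genes tested, and the median was 0.14. None passed an adjusted p of 0.05 in limma, and 6 (10.3%) had an unadjusted p under 0.05, all higher in KPG1. Among all genes, 11.6% had such a p in either direction, 5.26% higher in KPG1 and 6.31% lower. The share called was thus near that of all genes in either direction, and above it among genes higher in KPG1. All 10 genes of sterol sensing and SREBP processing were fitted higher, and their median was 0.14 on the log2 scale. Among them Erlin1, which takes part in sterol-dependent degradation in the endoplasmic reticulum, stood at 0.53 (limma adjusted p 0.422) and Faf2, a degradation adaptor, at 0.19.

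The other SREBP targets, most of them in fatty acid synthesis, were fitted higher in 13 of 15 genes with a median of 0.33. Fasn, the fatty acid synthase, was 932 ± 347 CPM in KP and 1476 ± 271 CPM in KPG1 (SD, n = 5 each), or 0.72 on the log2 scale (limma adjusted p 0.311). In single tumors it stood at 561, 1219, 1370, 695 and 814 CPM in KP 1 to KP 5 and at 1756, 1481, 1676, 1401 and 1065 CPM in KPG1 1 to KPG1 5, so 4 KPG1 tumors lay above all KP tumors. Acss2, which makes acetyl-CoA from acetate, had a log2 fold change of 0.59 (limma adjusted p 0.418) and Acaca, the acetyl-CoA carboxylase, 0.49 (limma adjusted p 0.439).

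The non-sterol branch uses isoprenoids for protein prenylation, dolichol and ubiquinone. Here 12 of 17 genes were fitted higher, with a median of 0.04. Fnta, the shared alpha subunit of enzymes that attach farnesyl and geranylgeranyl groups to proteins, stood at 53 to 64.1 CPM in KP and 62.9 to 103 CPM in KPG1, a log2 fold change of 0.45 (limma adjusted p 0.241). Nus1, which serves dolichol synthesis, stood at 0.22 and Rabggta, a Rab prenyltransferase subunit, at -0.18. Of 7 partners of the sterol enzymes, 4 were fitted higher, with Cyb5b at 0.28, Erg28 at 0.22 and Sec14l2 at -0.32, and none had an unadjusted p under 0.05.

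Of 9 genes that make oxysterols or respond to LXR, 5 were fitted higher, with a median of 0.09. Cyp7b1, the oxysterol 7α-hydroxylase, stood at 0.23 to 0.41 CPM in KP and 0.514 to 1.51 CPM in KPG1 without overlap, from 8 to 17 counts and 18 to 69 counts per library, with a log2 fold change of 1.20 (limma adjusted p 0.248). Across all genes, 1.05% had KPG1 wholly above KP. Lpcat3, a phospholipid acyltransferase that LXR induces, had a log2 fold change of 0.33 (limma adjusted p 0.388), and Ch25h, the cholesterol 25-hydroxylase, 0.54 (limma adjusted p 0.527).

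**Figure D5:**
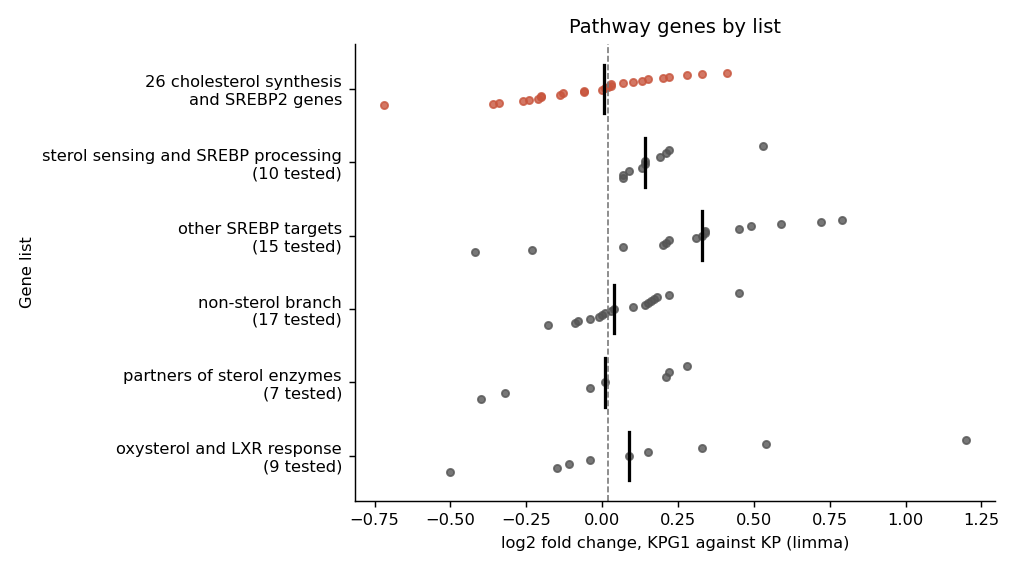
Fitted log2 fold change of KPG1 against KP for the 26 genes (red) and for the tested genes of 5 related lists (gray), with 1 point per gene, a black bar at each list's median and a dashed line at the median of all genes tested (0.02). The median of the 26 genes lies at 0.0028, and those of the related lists lie from 0.01 to 0.33.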

How the data were processed

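RNA sequencing counts were analysed for 5 KP and 5 KPG1 libraries, grouped by the labels. A stranded mRNA kit was used, per the labels, on RNA of the CD45-negative fraction. The submitters' processing notes name bcl2fastq 2.17, cutadapt 1.4.2, HISAT2, featureCounts 1.4.4, edgeR and mm10, without order. The study's methods name another cutadapt version, and the strand setting and annotation release are not given in the sources used here. The deposited counts are whole reads per gene, not normalized, and the joint table and the tables per library held equal counts in all 390170 places. A log2 table deposited by the authors, scaled with TMM and voom, was compared with the counts and not used further. Counts of short or shared genes depend on length and on near-identical copies, and without a known strand setting reads of opposite-strand genes cannot be separated.

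In place of the study's TPM filter, filterByExpr (edgeR 4.0.16, default settings) kept 16216 genes. TMM factors, voom and limma 3.58.1 were run in R 4.3.3 with genotype as the only term, and p-values were adjusted by Benjamini-Hochberg over all genes tested, with a threshold of 0.05. CPM used TMM-scaled totals, and log2 CPM a prior count of 2. Levels were compared between genes per kilobase of exon in GENCODE M21. Slc2a1 was also tested by a two-sided exact permutation test. Promoters were read with Python 3.11.15, copies with blastn 2.17.0 (at least 95% identity over 100 bases), and figures were made in matplotlib 3.10.9. Only the voom and limma fit, the edgeR quasi-likelihood test and DESeq2, each in its default form, were first run on simulated counts. Alternatives were the edgeR quasi-likelihood test, DESeq2 1.42.0, RLE factors, no filter, a mean CPM of at least 20, quality weights, a replicate block, the sample number as a covariate and each library left out.

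The members and lists were chosen with earlier results of these data known. All members were named, with the genes of each other list past the threshold and otherwise the 3 with the smallest p, except for a gene that is not reported here. Marker lists had no gene past an adjusted p of 0.05. Before adjustment, 11.6% of all genes tested had a limma p under 0.05. In the marker lists this share was 42.9% for epithelial (3 genes, lower in KPG1) and 40% for alveolar type 2 (4 genes, higher). It was 27.3% for leukocyte (3 genes, lower), 25% for club (1 gene, higher) and 20% for proliferation (4 genes, higher). It was 16.7% for ciliated (1 gene, lower), 14.3% for fibroblast (1 gene, higher) and 0% for alveolar type 1, endothelial and erythroid genes. Of the genes tested in these lists, 20 of 20 proliferation, 10 of 10 alveolar type 2, 8 of 8 endothelial, 7 of 7 fibroblast, 5 of 7 alveolar type 1, 2 of 4 club, 3 of 6 ciliated, 3 of 5 erythroid, 4 of 11 leukocyte and 2 of 7 epithelial genes were fitted higher in KPG1. Pnpla3 did not pass the filter and was not tested.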

Additional observations from a re-analysis of the deposited data

Results flagged for a closer look

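Single tumors stood apart from the other 4 of their group for 5 members. This was in 6 of 54 groups examined, each a member or Slc2a1 in KP or in KPG1. The nominal rate of the rule gives 2.7 for independent groups. These groups share the same tumors, so 2.7 does not measure chance here. All values are log2 CPM. Insig1 was 6.70 in KP 1, beside 6.38 to 6.47 in the other KP tumors. Pmvk was 6.76 in KPG1 1, beside 5.36 to 5.77. Mvd was 2.14 in KP 5, beside 3.63 to 4.20, and Msmo1 was 4.78 in KP 5, beside 5.89 to 6.10. Cyp51 was 5.23 in KP 2, beside 5.52 to 5.59, and 5.65 in KPG1 5, beside 5.14 to 5.27, so in each group 1 tumor lay toward the level of the other.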

How the results depend on the processing

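No member passed an adjusted p of 0.05 in any alternative. Of 461 member values under 18 alternatives, 410 kept their direction, and 10 of the 26 members never changed it. Insig1 stayed lower in every alternative, at -0.62 to -0.87 on the log2 scale with single libraries left out, with a lowest adjusted p of 0.0642 (quality weights) and a highest of 0.593 (sample number as covariate, log2 fold change -0.44). Fdft1 stayed lower, at -0.30 to -0.44 with single libraries left out and -0.23 with quality weights, but its unadjusted limma p was above 0.05 with quality weights (0.0796), with the sample number (0.0603), without KP 1 (0.0517) and without KPG1 3 (0.0556).

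With the sample number as covariate, log2 fold changes turned to 0.04 (Ebp), 0.06 (Fdps), -0.15 (Insig2), 0.03 (Msmo1), -0.79 (Mylip), 0.21 (Sqle) and 0.10 (Srebf2). Quality weights gave 0.06 (Ggps1), -0.09 (Hsd17b7), -0.04 (Lrp8), -0.02 (Lss) and -0.02 (Nsdhl). DESeq2 gave -0.11 (Hsd17b7), -0.00023 (Insig2) and -0.01 (Lss), edgeR -0.10 (Hsd17b7), the replicate block -0.03 (Hsd17b7), RLE factors -0.01 (Lss), no filter 0.01 (Ggps1), and a mean CPM of at least 20 gave -0.02 (Lss) and -0.01 (Mylip). Leaving out single libraries gave ranges that crossed 0, from -0.09 to 0.29 (Dhcr7), -0.16 to 0.04 (Ebp), -0.08 to 0.06 (Ggps1), -0.42 to 0.01 (Hmgcs1), -0.28 to 0.37 (Hsd17b7), -0.06 to 0.25 (Insig2), -0.10 to 0.12 (Lrp8), -0.05 to 0.04 (Lss), -0.12 to 0.44 (Mvd), -0.16 to 0.25 (Mylip), -0.09 to 0.12 (Nsdhl), -0.18 to 0.08 (Sqle) and -0.03 to 0.24 (Tm7sf2). The cause was not tested.

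Members with an unadjusted p under 0.05 numbered 4 with quality weights (19.1% of all genes), which were Insig1, Fdps, Lbr and Msmo1 and not Fdft1, and 1 with the sample number (9.91%), which was Mylip, as Insig1 then had an unadjusted limma p of 0.11. They numbered 1 to 6 (3.85% to 23.1%) with single libraries left out, the highest without KP 5. Over all genes this share ran from 8.42% (without KPG1 3) to 18.6% (without KP 5). Other pathway genes with such a p numbered 3 with the sample number and 3 to 8 with single libraries left out, beside the same shares of all genes. Genes past an adjusted p of 0.05 numbered 10 higher and 18 lower as reported, 125 and 423 in DESeq2, 51 and 177 with quality weights, 11 and 29 in edgeR, 5 and 31 with a mean CPM of at least 20, 12 and 31 without a filter, and 4 and 4 with the sample number. Leaving out single libraries gave 3 to 71 higher and 1 to 223 lower, the highest of both without KP 5. Slc2a1 passed the threshold in DESeq2 (-1.04), with quality weights (-1.13) and without KP 5, and ranged from -0.92 to -1.14 with single libraries left out. Replicate numbers are shared by the groups, but correlations between deviations of same-numbered libraries ran from -0.16 to 0.08 and 1 of 5 correlated best with its own number, so the numbers were not taken as pairs. With the replicate block, 4 genes were higher and 1 lower, and Slc2a1 was at -1.01.

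The sample number runs largely with the group, so that covariate and the genotype can hardly be told apart. Members with few counts per kilobase, such as Lrp8, and those sharing sequence with copies are measured less surely, and intervals cover the spread between 5 libraries a group.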
